A study of Mus musculus with 36 samples.

Results

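Brains of mice with experimental autoimmune encephalomyelitis (EAE) that received corn oil by gavage were set against brains of naive mice. The 17 libraries compared were chosen by the treatment named in the labels, 9 from vehicle-gavaged EAE mice and 8 from naive mice, out of 36 in the series. The vehicle group consisted of wild-type (WT C57BL/6) mice immunized subcutaneously with MOG35-55, a peptide of myelin oligodendrocyte glycoprotein, in an emulsion with complete Freund's adjuvant, injected with pertussis toxin, and gavaged with corn oil every day. The naive group consisted of healthy mice of the same genotype. EAE brains were taken whole at day 19, which the series describes as the peak of disease. Untreated EAE brains (n = 9), which had the same immunization and no gavage, and farnesol EAE brains (n = 10), given 100 mg/kg/day of farnesol in corn oil, are used here only where they bear on the vehicle values. No group received adjuvant and toxin alone and no naive group was gavaged, so the disease, the adjuvant, the toxin and the gavage cannot be told apart in this comparison. The labels give neither age nor sex.

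EAE is a T cell driven attack on myelin that is used as a model of multiple sclerosis, and in C57BL/6 mice it falls most heavily on the spinal cord. Blood-borne monocytes and neutrophils enter the central nervous system at the peak, and interferon gamma from T cells induces antigen presentation genes in local cells. Neurons are not the immunized target. Their genes are described here because whole-brain RNA comes largely from neurons and the glia around them, and excitatory (glutamatergic) neurons of the cortex are arranged in layers that each express known marker genes.

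Values are library-size-scaled counts (CPM) with factors from the trimmed mean of M-values (TMM), changes are log2 of vehicle EAE over naive ± standard error (SE), and adjusted p is from edgeR's quasi-likelihood test with Benjamini-Hochberg adjustment over 18438 genes. A gene is said to have risen or fallen where the adjusted p was below 0.05. In bulk brain RNA, fewer cells of a type and less RNA per cell cannot be told apart. Library totals were 19.19 to 22.07 M counts in vehicle libraries and 14.71 to 23.01 M in naive libraries.

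The libraries differed in a ribosomal RNA gene, and 1 naive brain differed from the rest in cerebellar transcripts. The ribosomal RNA gene CT010467.1 measured 1280 to 2780 CPM in vehicle libraries and 7460 to 10700 CPM in naive libraries. It divided the series into 2 library sets that no label names. All vehicle and untreated libraries and farnesol replicates 1 to 3 were in the low set, and all naive libraries and farnesol replicates 4 to 10 in the high set. Vehicle and naive brains therefore never shared a set, and the set and the disease cannot be told apart in these libraries except through the farnesol ones. Naive replicate 4 had 0.667 CPM of the cerebellar granule cell receptor Gabra6, against 94.4 to 124 CPM in the other naive brains, a gene chosen after its values were seen. Neuronal (Syn1, Snap25), astrocyte (Slc1a2), oligodendrocyte (Mbp) and GABAergic (Gad1) markers were present in all 17 libraries.

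Vehicle EAE brains differed from naive brains in 5808 of 18438 genes (31.5%), of which 3011 rose (16.3%) and 2797 fell (15.2%). The falls were small, and they were in abundant genes. Their median size was 0.21 on the log2 scale (quartiles 0.16 and 0.29), and 100 of them (3.58%) exceeded 1.5-fold. The rises had a median of 0.50 (quartiles 0.29 and 0.91), and 1293 of them (42.9%) exceeded 1.5-fold. Genes that fell had a median naive level of 84.3 CPM, against 7.8 CPM for genes that rose and 15.4 CPM for all genes tested. Protein-coding genes made up 96.2% of the falls, 85.3% of the rises and 83.1% of all genes tested. The coding genes that fell were also long, with a median genomic span of 36.4 kb against 19.9 kb for those that rose and 24.8 kb for all coding genes tested. Among the 8378 genes with a mean of at least 20 CPM, 2343 fell (28%) and 1015 rose (12.1%). The vehicle and naive ranges did not overlap at all for 636 genes with every vehicle library lower (3.45%) and 698 genes with every vehicle library higher (3.79%).

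How many genes count as falling depended on the scaling. With library totals alone in place of TMM factors, 4824 genes rose (26.2%) and 953 fell (5.17%), and the median change of all genes shifted by 0.09. With factors from housekeeping genes, which shifted it by -0.05, 2052 rose (11.1%) and 2820 fell (15.3%). Of the 16 housekeeping genes, 4 rose and 5 fell with TMM factors. Among them B2m, which is also on an inflammation list, rose by 1.89 (adjusted p = 0.000587). The housekeeping factors therefore carry some of the change itself, and a list without B2m was not tried.

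**Figure D1:**
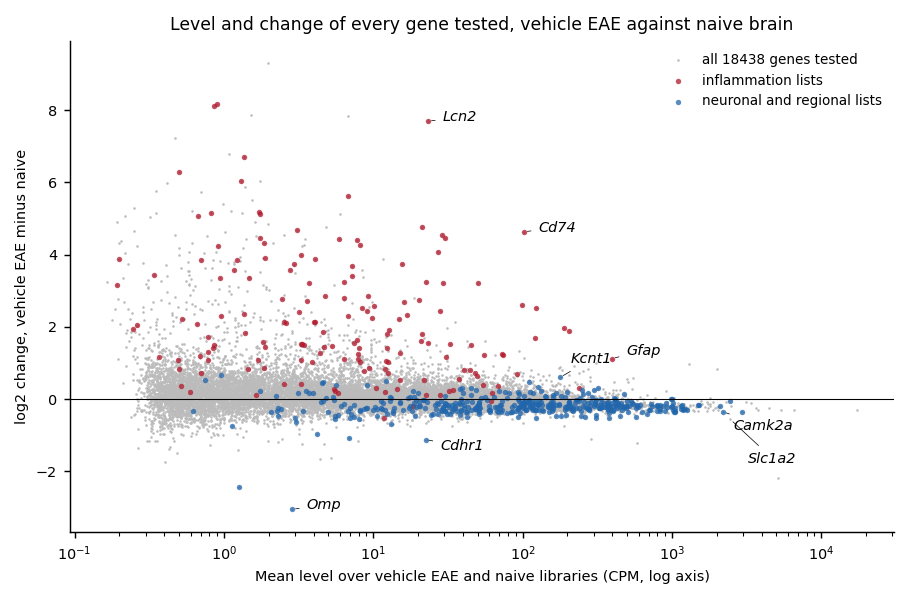
Log2 change, vehicle EAE over naive (vertical axis), against mean CPM on a log axis (horizontal axis) for the genes tested; grey points are all genes, red points inflammation lists and blue points neuronal and regional lists. The blue points crowd just below 0 at high CPM, where Camk2a stood at -0.35, and the red points spread upwards at lower CPM, where Lcn2 reached 7.69.

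Neuronal genes were part of this broad, shallow fall. Of 415 tested genes on 23 lists of neuronal and regional markers, 175 fell (42.2%), 10 rose and 230 did not pass. Of all genes 15.2% fell, and of genes with a mean of at least 20 CPM 28% fell. The lists were not matched to other genes by level. The median change of the 415 was -0.19, beside 0.004 over all genes. With library totals alone, 95 of the 415 fell and 16 rose, with a median of -0.1. In 63 of the 415 (15.2%), every vehicle library was below every naive library, beside 3.45% of all genes. Together the 415 genes took 8.12% to 9.56% of TMM-scaled counts in vehicle libraries (median 9.22%) and 9.8% to 11% in naive libraries (median 10.5%). These scaled ranges did not overlap. TMM factors were 1.012 to 1.036 in vehicle libraries and 0.939 to 0.988 in naive libraries, so part of this gap comes from the scaling. Shares of unscaled counts were not compared. With a required fold of at least 1.2, 9 of the 415 fell. On the lists given below with no rise, 251 genes in all, 2 were higher at an unadjusted p below 0.05 in edgeR, 0 passed in DESeq2 and 2 passed in limma-voom.

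Glutamatergic identity genes were lower in every tested member, and 7 of 15 fell (46.7%) with a median of -0.27. With library totals alone 4 of the 15 fell, and with library set as a term 3 did. Slc17a7 (chr7:45163949-45176142, GRCm38), which loads glutamate into synaptic vesicles of cortical and hippocampal neurons, measured 785, 916 and 1010 CPM in vehicle brains (lowest, median, highest), against 1054, 1138 and 1420 CPM in naive brains. No vehicle brain reached the lowest naive brain, and the change was -0.35 ± 0.08 (adjusted p = 0.000903). Camk2a (chr18:60925618-60988152), the calcium-dependent kinase of excitatory synapses, measured 1604, 2014 and 2093 CPM in vehicle brains, against 2178, 2420 and 2854 CPM in naive brains. It also showed no overlap, with a change of -0.35 ± 0.10 (adjusted p = 0.00561). Mef2c, an activity-dependent transcription factor of excitatory neurons, ranged from 254 to 385 CPM in vehicle brains and from 361 to 514 CPM in naive brains (-0.39 ± 0.10, adjusted p = 0.00172). Here 8 of 9 vehicle brains were below the lowest naive one. Emx2, a transcription factor that patterns the cortex, fell by 0.42 on the log2 scale (adjusted p = 0.00904).

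Among upper-layer markers, 5 of 15 fell (33.3%) and 1 rose (median -0.16), beside 28% that fell among genes of at least 20 CPM. With library totals alone 3 fell and 1 rose, and likewise with library set as a term. Rorb (chr19:18930605-19111196), a nuclear receptor that marks layer 4, measured 29.5, 35.5 and 40.9 CPM in vehicle brains, against 39.5, 50.6 and 54.7 CPM in naive brains. Only the highest vehicle brain entered the naive range, and the change of -0.49 ± 0.08 (adjusted p = 2.3e-05) had the smallest p of the 4 glutamatergic and layer lists. Lamp5, a membrane protein of superficial neurons, measured 80, 97.3 and 105 CPM in vehicle brains and 107, 113 and 131 CPM in naive brains, with no overlap (-0.29 ± 0.07, adjusted p = 0.00116). Cux1 fell by 0.21 (adjusted p = 0.000665) and Pou3f1 by 0.26 (adjusted p = 0.0237), both of them transcription factors of upper-layer neurons. Cux2, the upper-layer partner of Cux1, measured 66.6, 86.3 and 90.8 CPM in vehicle brains and 89.1, 92.5 and 98.7 CPM in naive brains (-0.17 ± 0.06, adjusted p = 0.0329). This call was fragile. It was lost with library totals alone (-0.07, adjusted p = 0.361) and on leaving out any one of vehicle replicates 2, 4 and 9 or naive replicates 2 and 4. Whrn, a scaffold protein, rose by 0.22 (adjusted p = 0.0275), a call that was lost without naive replicate 4 or naive replicate 8 (largest adjusted p 0.069). The call on Pou3f1 was lost without naive replicate 4 or 6 (largest adjusted p 0.0772) and with library totals alone (adjusted p = 0.145).

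Among layer 5 markers, 4 of 15 fell (26.7%) and 1 rose (median -0.16), near the 28% that fell among genes of at least 20 CPM. With library totals alone 1 fell and 1 rose, and with library set as a term 0 fell and 0 rose. Bcl11b (chr12:107910403-108003602), the transcription factor of neurons projecting to the spinal cord, measured 70.3, 86.2 and 94.5 CPM in vehicle brains and 96.6, 108 and 125 CPM in naive brains. Its ranges did not overlap (-0.39 ± 0.12, adjusted p = 0.0154), and the call was lost with library totals alone (adjusted p = 0.0572). Striatal neurons and T cells also express Bcl11b. Deptor, an inhibitor of the growth kinase mTOR, fell by 0.28 (adjusted p = 0.00227) and Parm1 by 0.16 (adjusted p = 0.00567). With library totals alone the Parm1 call was lost (adjusted p = 0.239) and that of Deptor held (adjusted p = 0.0344). Fezf2, which acts upstream of Bcl11b in the same neurons, did not pass (-0.02 ± 0.12, adjusted p = 0.916). Bcl6, a repressor also made by immune cells, rose by 0.31 (adjusted p = 0.0162). In layer 6 and the subplate, 2 of 15 fell and 2 rose (13.3% each, median -0.18), shares no higher than the 15.2% and 16.3% of all genes that fell and rose. Syt6, a synaptotagmin, fell by 0.33 (adjusted p = 0.0115) and Tle4, a corepressor of corticothalamic neurons, by 0.18 (adjusted p = 0.0132). Both calls were lost with library totals alone (adjusted p = 0.0623 and 0.227) and held with library set as a term (adjusted p = 0.035 and 0.0185). Sla, an adaptor protein that T cells also make, rose by 0.51 (adjusted p = 0.00102), and 8 of 9 vehicle brains were above the highest naive one. Garnl3, a GTPase-activating protein, rose by 0.19 (adjusted p = 0.0182), a call that was lost without naive replicate 4 (adjusted p = 0.0558).

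Over the 60 genes of these 4 lists, 18 fell (30%) and 4 rose. The share that fell is close to the 28% of genes with a mean of at least 20 CPM. The summed share of the 60 in TMM-scaled counts was 0.531% to 0.647% in vehicle libraries and 0.668% to 0.782% in naive libraries. With library totals alone, 8 of the 60 fell and 4 rose. With library set as a term, 8 fell and 1 rose.

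**Figure D2:**
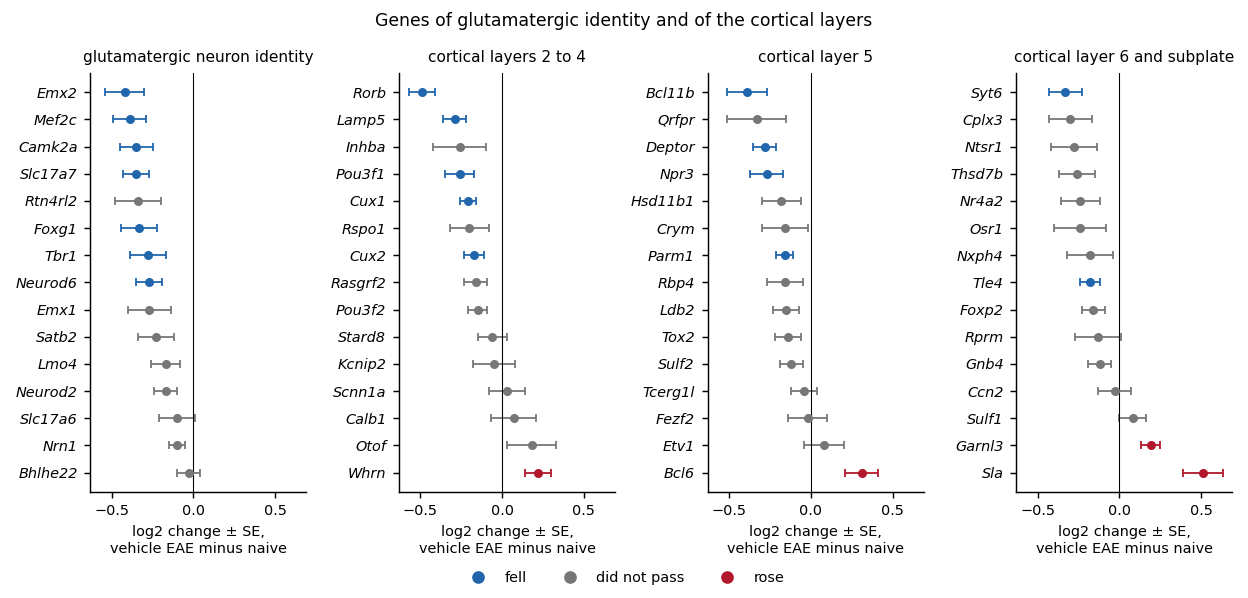
Log2 change ± SE, vehicle EAE over naive, for the 60 tested genes of the glutamatergic identity, layer 2 to 4, layer 5 and layer 6 lists, coloured by whether each fell, rose or did not pass. Most points lie left of 0, with 18 that fell and 4 that rose.

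The transmitter release machinery and the scaffold of the excitatory synapse were lower almost throughout. On the synaptic vesicle release and postsynaptic density lists, 39 of 53 genes fell (73.6%), none rose and 14 did not pass. In 26 of the 53 (49.1%) every vehicle library was below every naive one, beside 3.45% of all genes. With library totals alone, 28 of the 53 fell and none rose. With library set as a term, 5 of the 53 fell (median -0.22). The summed share of the 53 in TMM-scaled counts was 2.46% to 2.93% in vehicle libraries and 3.06% to 3.52% in naive libraries.

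On the presynaptic side, 21 of 25 vesicle release genes fell (median -0.22). Syn1 (chrX), the synapsin that tethers vesicles to actin, measured 474, 556 and 599 CPM in vehicle brains and 621, 705 and 784 CPM in naive brains. No vehicle brain overlapped a naive one (-0.36 ± 0.07, adjusted p = 6.74e-05), and the change kept its call with library set as a term (-0.42, adjusted p = 0.0318). Syp, the vesicle membrane protein synaptophysin, ranged from 647 to 803 CPM in vehicle brains and from 846 to 1028 CPM in naive brains (-0.32 ± 0.05, adjusted p = 2.41e-05). Its groups did not overlap either. Snap25, a membrane SNARE protein of the fusion machinery, fell by 0.18 (adjusted p = 0.00259), at 1752 to 2095 CPM in vehicle brains and 2116 to 2351 CPM in naive brains. With library totals alone the Snap25 call was lost (-0.08, adjusted p = 0.138).

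Postsynaptically, 18 of 28 density genes fell (median -0.26). Shank1 (chr7), the scaffold that joins glutamate receptor complexes to actin, measured 410, 482 and 532 CPM in vehicle brains, against 605, 683 and 706 CPM in naive brains (-0.49 ± 0.09, adjusted p = 5.5e-05). The highest vehicle brain lay well below the lowest naive brain. Nlgn3, a neuroligin that spans the cleft to presynaptic neurexins, measured 47.1 to 58.8 CPM in vehicle brains and 60.1 to 73.3 CPM in naive brains (-0.37 ± 0.05, adjusted p = 2.76e-06). Dlg4, which encodes the scaffold PSD-95, fell by 0.33 (adjusted p = 0.000223) at 647 to 744 CPM in vehicle brains and 790 to 939 CPM in naive brains. Its relative Dlg2 fell by 0.27 (adjusted p = 0.000238). Neither gene overlapped between the groups.

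**Figure D3:**
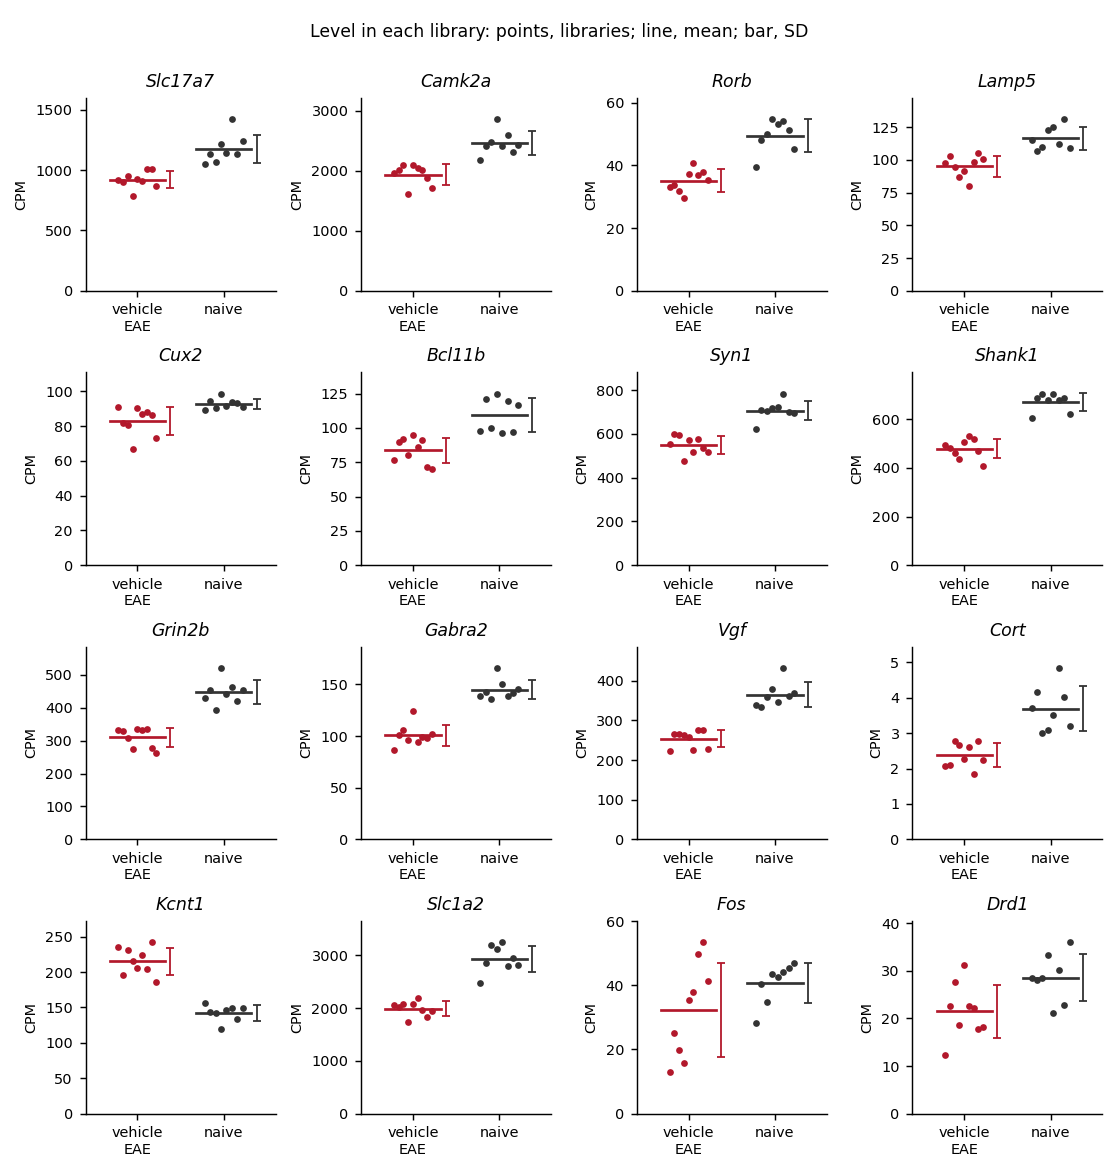
CPM from 0 in each vehicle EAE and naive library for 16 genes; points are libraries, lines are means and bars are SD. In Slc17a7, Camk2a, Syn1, Shank1, Grin2b, Gabra2, Vgf and Slc1a2 every vehicle point lies below every naive point, in Kcnt1 every vehicle point lies above, and Fos and Drd1 overlap.

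Receptors for both main transmitters fell in part. Glutamate receptors fell in 11 of 26 genes (42.3%) with 1 rise (median -0.13), and GABA receptors in 10 of 15 (66.7%) with no rise (median -0.19). Of genes of at least 20 CPM, 28% fell. With library totals alone, glutamate receptors had 7 falls and 3 rises (median -0.03) and GABA receptors 4 falls (median -0.1). With library set as a term, glutamate receptors had 2 falls and 1 rise and GABA receptors 2 falls. Grin2b (chr6), a subunit of the NMDA receptor, measured 262, 328 and 337 CPM in vehicle brains and 394, 448 and 521 CPM in naive brains (-0.53 ± 0.10, adjusted p = 0.000184). Gabra2 (chr5), a GABA-A receptor subunit of forebrain synapses, measured 86.4, 98.7 and 124 CPM in vehicle brains and 136, 143 and 166 CPM in naive brains (-0.53 ± 0.08, adjusted p = 3.89e-06). Both separated the groups, and Gabra2 kept its call with library set as a term (-0.66, adjusted p = 0.00492). Grm3, a presynaptic and astrocytic glutamate receptor, fell by 0.41 (adjusted p = 3.62e-05), and the AMPA receptor subunit Gria1 by 0.22 (adjusted p = 0.000136). Gabra3 fell by 0.30 (adjusted p = 0.00208) and Gabbr1, of the metabotropic GABA-B receptor, by 0.17 (adjusted p = 0.000226). The kainate receptor subunit Grik2 rose by 0.19 (adjusted p = 0.00912), with 7 of 9 vehicle brains above the highest naive one.

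Potassium and HCN channels fell in 15 of 31 genes (median -0.20), and 1 rose. That gene, Kcnt1 (chr2), the sodium-activated potassium channel Slack, measured 186, 215 and 242 CPM in vehicle brains, against 119, 145 and 156 CPM in naive brains. Every vehicle brain was above every naive brain (0.60 ± 0.08, adjusted p = 9.37e-07). Kcnh5, a voltage-gated channel of the ether-a-go-go family, went the other way at 7.56, 9.4 and 12.9 CPM in vehicle brains and 13.1, 16.1 and 19.1 CPM in naive brains (-0.69 ± 0.13, adjusted p = 0.000157). Its relative Kcnh1 fell by 0.37, and Kcnj3, a G protein-gated inward rectifier, fell by 0.26. Sodium and calcium channels fell in 6 of 21 genes (28.6%) with no rise (median -0.09), near the 28% of genes of at least 20 CPM. Scn8a, the sodium channel of the axon initial segment, fell by 0.22 (adjusted p = 0.00317), a call that was lost with library set as a term (adjusted p = 0.988). Sptbn4, the spectrin of the same segment, rose by 0.25 (adjusted p = 0.00858), at 238 to 311 CPM in vehicle brains and 206 to 245 CPM in naive brains, with 8 of 9 vehicle brains above the naive range.

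Neuronal pumps and exchangers fell in 9 of 14 genes (median -0.17). Atp2b2, a calcium pump of the plasma membrane, averaged 752 ± 66.4 CPM in vehicle brains and 910 ± 65.3 CPM in naive brains (SD, n = 9 and 8), with overlapping ranges (-0.27 ± 0.06, adjusted p = 0.00083). Slc8a1, a sodium-calcium exchanger, averaged 26.8 ± 4.26 CPM in vehicle brains and 35.8 ± 4.45 CPM in naive brains, and its ranges overlapped too (-0.42 ± 0.11, adjusted p = 0.00369). Calcium and cyclic nucleotide signalling genes fell in 15 of 26, with 1 rise (median -0.20). Prkcb, the beta form of protein kinase C, measured 320, 391 and 412 CPM in vehicle brains and 415, 527 and 576 CPM in naive brains (-0.46 ± 0.07, adjusted p = 6.6e-06). Rgs4, which shortens G protein signals, measured 212 to 294 CPM in vehicle brains and 325 to 413 CPM in naive brains (-0.45 ± 0.09, adjusted p = 0.000151), and Plcb1, a phospholipase downstream of metabotropic receptors, fell by the same 0.45 (adjusted p = 0.000182). All 3 of these signalling genes separated the groups. Camkk1, a kinase that activates other calcium-dependent kinases, rose by 0.17, a call that was lost without naive replicate 2 or 3 (largest adjusted p 0.0532).

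Cytoskeletal genes of axons and dendrites fell in 15 of 24, and Sptbn4, described above, was the 1 that rose (median -0.18). Tubb2a, a beta-tubulin, measured 325, 364 and 376 CPM in vehicle brains and 390, 432 and 468 CPM in naive brains (-0.30 ± 0.06, adjusted p = 0.000329). Kif1a, the motor that carries synaptic vesicle precursors, measured 1046 to 1154 CPM in vehicle brains and 1207 to 1441 CPM in naive brains (-0.27 ± 0.05, adjusted p = 0.000135). Neither overlapped. The microtubule protein Map1b fell by 0.29 (adjusted p = 0.00016). Mapt, which encodes tau, did not pass (-0.04 ± 0.04, adjusted p = 0.429), at 487 to 555 CPM in vehicle brains and 520 to 571 CPM in naive brains.

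Inhibitory neuron genes fell in 10 of 21 (47.6%) with no rise (median -0.32). With library totals alone 6 of them fell, and with library set as a term 5 did. Among transcripts that all inhibitory neurons share, Gad1, the GABA-synthesizing enzyme, measured 428, 459 and 527 CPM in vehicle brains and 493, 532 and 579 CPM in naive brains (-0.19, adjusted p = 0.00423), and Slc32a1, the vesicular GABA transporter, fell by 0.23 (adjusted p = 0.000278). With library totals alone the Gad1 call was lost (-0.1, adjusted p = 0.12) and that of Slc32a1 held (adjusted p = 0.0127). Both were lost with library set as a term (adjusted p = 0.0793 and 0.406). Cort, the somatostatin-related peptide cortistatin, measured 1.86, 2.28 and 2.78 CPM in vehicle brains and 2.99, 3.62 and 4.84 CPM in naive brains, with no overlap (-0.63 ± 0.14, adjusted p = 0.000688). Crhbp, which binds corticotropin-releasing hormone, fell by 0.40 (adjusted p = 0.00123), and Sst, somatostatin, by 0.30 (adjusted p = 0.0265). The Sst call was lost on leaving out vehicle replicate 1 or 4 or naive replicate 4 or 8 (largest adjusted p 0.0679). Lhx6, a transcription factor of somatostatin and parvalbumin interneurons, did not pass (-0.33 ± 0.16, adjusted p = 0.105). Pvalb, which marks fast-spiking interneurons and also Purkinje cells, did not pass (0.11 ± 0.19, adjusted p = 0.706). Its lowest value, 62.3 CPM, was in naive replicate 4, the brain low in cerebellar genes.

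Neuropeptides and secretogranins, cargo of dense-core vesicles, fell in 12 of 19 genes with no rise (median -0.24). Vgf (chr5), a secreted neurotrophin-induced peptide precursor, measured 223, 264 and 276 CPM in vehicle brains and 333, 359 and 432 CPM in naive brains (-0.52 ± 0.10, adjusted p = 8.28e-05). Cck, cholecystokinin, measured 174, 212 and 223 CPM in vehicle brains and 257, 283 and 331 CPM in naive brains (-0.47 ± 0.09, adjusted p = 0.00027). Scg2, secretogranin II, fell by 0.28 (adjusted p = 0.000165), at 227 to 272 CPM in vehicle brains and 273 to 320 CPM in naive brains. In all 3, every vehicle brain was below every naive brain. Immediate early genes, switched on by neuronal firing, varied widely between animals. Of 17, 3 fell (17.6%), near the 15.2% of all genes, and none rose (median -0.24). Egr1 measured 110, 199 and 317 CPM in vehicle brains and 199, 314 and 372 CPM in naive brains (-0.50, adjusted p = 0.00618), with 5 of 9 vehicle brains below the naive range. Fos measured 13, 35.4 and 53.4 CPM in vehicle brains and 28.2, 43.1 and 47 CPM in naive brains. It did not pass (-0.33, adjusted p = 0.297), with 4 vehicle brains below the naive range and 2 above it.

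Of 12 olfactory bulb markers, 6 fell and none rose (median -0.65). Omp, the olfactory marker protein of sensory neurons and their axons, measured 0.0917, 0.454 and 1.76 CPM in vehicle brains and 0.708, 4.24 and 13 CPM in naive brains (-3.05 ± 0.51, adjusted p = 2.43e-05). Cdhr1, a cadherin of mitral cells, measured 6.41, 7.91 and 32.5 CPM in vehicle brains and 8.77, 30.1 and 46.9 CPM in naive brains (-1.12 ± 0.38, adjusted p = 0.0208). Both genes overlapped between the groups and varied widely within each. How much bulb each dissected brain held was not measured, and its part in these falls was not tested. A further fit had the bulb level of each library, the mean log2 level of these same 12 genes, as a covariate. In it 1 of the 12 fell, a result that adjusting them for their own mean largely fixes in advance. Of the 415 neuronal genes, which include the 12, 111 fell in place of 175.

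Striatal projection neuron genes were lower in all 19 tested members, of which 5 fell (26.3%, median -0.27), near the 28% of genes of at least 20 CPM. Penk, the enkephalin precursor of indirect-pathway neurons, measured 102, 151 and 195 CPM in vehicle brains and 176, 210 and 241 CPM in naive brains (-0.47 ± 0.15, adjusted p = 0.0113). Foxp1, a transcription factor of these neurons and of the cortex, fell by 0.32 (adjusted p = 0.000933). Drd1, the dopamine receptor of direct-pathway neurons, did not pass (-0.41 ± 0.23, adjusted p = 0.167), at 12.3, 22.2 and 31.3 CPM in vehicle brains and 21.1, 28.4 and 36 CPM in naive brains. In the hippocampus list 3 of 14 genes fell (21.4%, median -0.10). In the hypothalamic peptide list 2 of 14 fell (14.3%) and 2 rose (median -0.05), beside 15.2% of all genes that fell. No gene passed on the thalamus list of 12 (median -0.09), the monoamine neuron list of 12 (median -0.07) or the cerebellum list of 17 (median 0.22) in edgeR. At an unadjusted p below 0.05 these lists held 1, 1 and 0 genes, and 0, 1 and 0 passed with DESeq2 and 1, 1 and 0 with limma-voom. Summed cerebellar markers ranged from 2478 to 3529 CPM in vehicle brains and from 846 to 3426 CPM in naive brains, the lowest being naive replicate 4. Without naive replicate 4 and the other libraries low in cerebellar genes, 167 of the 415 neuronal genes fell and 11 rose, with the same median of -0.19.

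**Figure D4:**
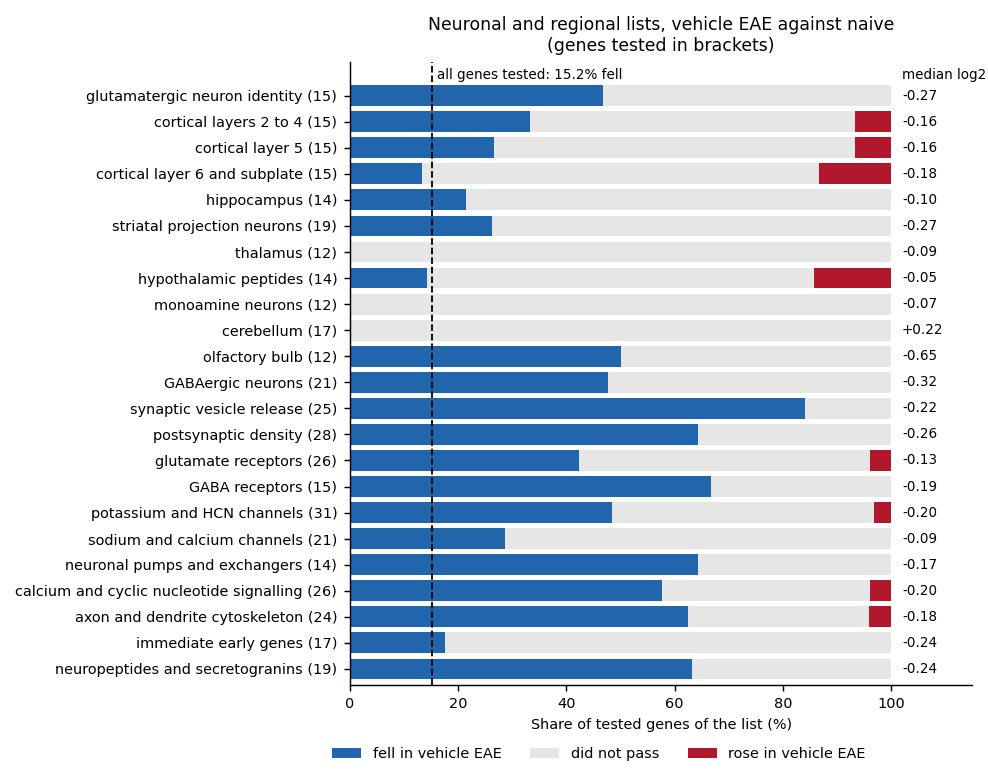
Share of tested genes on each of 23 neuronal and regional lists that fell, did not pass or rose in vehicle EAE over naive, with the median log2 change at the right; the dashed line marks the 15.2% of all genes that fell. Vesicle release has the highest share that fell (21 of 25), followed by GABA receptors (10 of 15), while the cerebellum, thalamus and monoamine lists have none.

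Glial genes next to these neurons were also lower in part. Among homeostatic astrocyte genes, 7 of 18 fell and 1 rose (median -0.13). Slc1a2 (chr2:102658659-102790784), the transporter that clears most glutamate from synapses, measured 1730, 2024 and 2184 CPM in vehicle brains, against 2474, 2904 and 3249 CPM in naive brains. The highest vehicle brain was below the lowest naive brain, and the change of -0.56 ± 0.06 (adjusted p = 6.33e-09) had the smallest p of any fall above 20 CPM in naive brains. It was -0.55 with library set as a term (adjusted p = 0.00128). Ncan, neurocan, a proteoglycan of the perineuronal matrix made by neurons and astrocytes, measured 114, 143 and 163 CPM in vehicle brains and 198, 242 and 257 CPM in naive brains (-0.75 ± 0.09, adjusted p = 1.21e-07). It too separated the groups and kept its call with library set as a term (-0.84, adjusted p = 0.00186). Mertk, a receptor for engulfing cell debris, was the astrocyte list gene that rose (0.34), and macrophages make it as well. Its call was lost without vehicle replicate 3 or 4 (largest adjusted p 0.0629).

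Myelin genes fell in 4 of 17 (23.5%, median -0.09), beside 15.2% of all genes. Mbp, myelin basic protein, measured 2582, 3075 and 3889 CPM in vehicle brains and 2896, 3113 and 3779 CPM in naive brains. It did not pass (-0.09 ± 0.09, adjusted p = 0.488). Sox10, the transcription factor of the oligodendrocyte lineage, fell by 0.32 (adjusted p = 0.00413). On the oligodendrocyte precursor list 5 of 12 fell (median -0.15), among them Tnr, the matrix protein tenascin-R, at 128 to 155 CPM in vehicle brains and 166 to 196 CPM in naive brains (-0.34 ± 0.06, adjusted p = 0.000118).

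Some other genes had large falls or falls of small p. Mycn, a growth-promoting transcription factor, fell by 0.76 (adjusted p = 8.92e-07) at 5.82 ± 0.776 CPM in vehicle brains and 9.86 ± 0.954 CPM in naive brains (SD, n = 9 and 8). Frzb, a secreted Wnt antagonist, measured 12.8 ± 2.48 CPM in vehicle brains and 20.7 ± 2.58 CPM in naive brains (-0.70 ± 0.13, adjusted p = 0.000131). Bmp3, a secreted factor of the TGF-beta family, measured 10.4 ± 0.984 CPM in vehicle brains and 16.7 ± 2.31 CPM in naive brains (-0.69 ± 0.14, adjusted p = 0.000192). Ncam1, the neural cell adhesion molecule, and Tuba1a, the tubulin of growing axons, fell by 0.33 (adjusted p = 3.84e-07) and 0.39 (adjusted p = 7.58e-07) with no overlap between groups. The non-coding RNA Rn7sk and the gene Lars2 also fell, by 1.63 and 1.1, but with library set as a term they changed by 0.31 and 0.71, neither passing the test (adjusted p = 0.665 and 0.1).

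Immune and inflammatory genes rose in the same brains. On 12 inflammation lists, 135 of 157 tested genes rose and 1 fell, against 16.3% of all genes rising. These genes took 0.212% to 1.36% of TMM-scaled counts in vehicle libraries and 0.176% to 0.209% in naive libraries. All 12 neutrophil, all 15 monocyte and macrophage, all 11 MHC class II and all 15 interferon gamma GTPase genes tested rose. Lcn2, a siderophore-binding protein of neutrophils and reactive astrocytes, measured 26.5, 42.3 and 74.5 CPM in vehicle brains and 0, 0.157 and 0.596 CPM in naive brains (7.69 ± 0.41, adjusted p = 2e-16). Cd74, the MHC class II chaperone, measured 17, 67.1 and 935 CPM in vehicle brains and 5.51, 8.09 and 9.85 CPM in naive brains (4.63 ± 0.77, adjusted p = 2.46e-05). Gfap, the filament of reactive astrocytes, measured 234, 416 and 1337 CPM in vehicle brains and 211, 242 and 307 CPM in naive brains, with 6 of 9 vehicle brains above the naive range (1.12 ± 0.29, adjusted p = 0.00275). With library set as a term, Lcn2 kept its call (7.48, adjusted p = 2.43e-10), while Cd74 (2.96, adjusted p = 0.131) and Gfap (0.62, adjusted p = 0.509) lost theirs. In that fit 8 of the 12 neutrophil genes and 7 of the 15 monocyte and macrophage genes rose, and 0 of the MHC class II genes (median 1.02) and 0 of the interferon gamma GTPases (median 1.97) passed. What part the added immune RNA had in the neuronal falls was not tested.

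Whether the brains with more immune RNA were those with less neuronal RNA was examined over the 9 vehicle brains. Log2 Cd74 was set against 4 genes. With Camk2a, Pearson's r was -0.65 (exact permutation p = 0.0549, adjusted p over the 4 relations 0.2) and Spearman's rho was -0.45 (permutation p = 0.23). With Syn1, r was -0.58 (permutation p = 0.1, adjusted 0.2) and rho was -0.32 (permutation p = 0.41). With Rorb, r was -0.48 (permutation p = 0.187) and rho -0.45 (permutation p = 0.23), and with Slc1a2, r was -0.36 (permutation p = 0.338) and rho -0.22 (permutation p = 0.581). None of the 4 passed. Without vehicle replicates 2 and 4, the brains farthest from the median of Cd74, r was -0.49 for Camk2a, -0.73 for Syn1, 0.14 for Rorb and 0.28 for Slc1a2.

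Promoters were read for the genes of the neuronal falls and the immune rises that carry a known regulatory motif. They are the 250 bases before the annotated start in RefSeq (GRCm38.p6), printed 5′ to 3′ on the strand of the gene, and 12934 of the tested genes had such a window. The first motif was the cyclic AMP response element (CRE), TGACGTCA, through which CREB drives activity-dependent neuronal genes. It is its own reverse complement, so both strands read alike. It was found in 362 of all 12934 genes (2.8%), in 65 of the 2074 that fell (3.13%) and in 52 of the 2232 that rose (2.33%). Among genes of the neuronal lists that fell, 4 of 130 held it (3.08%), a share close to that of all genes. The 3 of smallest p are Syn1 (chrX:20920919-20921168, minus strand), Scg2 (chr1:79440027-79440276, minus strand) and Tubb2a (chr13:34078009-34078258, minus strand), with the motif in capitals 159, 68 and 59 bases before the start.
Syn1: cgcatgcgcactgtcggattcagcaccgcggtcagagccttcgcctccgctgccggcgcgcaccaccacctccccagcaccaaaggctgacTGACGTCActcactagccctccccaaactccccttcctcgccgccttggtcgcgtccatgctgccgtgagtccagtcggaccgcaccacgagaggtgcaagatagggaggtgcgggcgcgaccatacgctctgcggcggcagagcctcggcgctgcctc
Scg2: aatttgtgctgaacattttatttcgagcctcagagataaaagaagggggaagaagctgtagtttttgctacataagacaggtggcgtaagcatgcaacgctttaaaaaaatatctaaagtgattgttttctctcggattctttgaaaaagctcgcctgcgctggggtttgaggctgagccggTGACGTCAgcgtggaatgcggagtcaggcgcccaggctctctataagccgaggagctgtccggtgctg
Tubb2a: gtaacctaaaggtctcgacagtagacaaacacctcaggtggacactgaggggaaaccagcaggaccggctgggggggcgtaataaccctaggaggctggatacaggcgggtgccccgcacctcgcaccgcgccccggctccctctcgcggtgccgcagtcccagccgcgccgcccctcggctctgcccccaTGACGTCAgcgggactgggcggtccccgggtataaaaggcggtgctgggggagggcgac

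The second motif was the interferon-stimulated response element (ISRE), searched on both strands as GAAA, any 2 bases and GAAA. It was found in 415 of all 12934 genes (3.21%), in 110 of the 2232 that rose (4.93%) and in 45 of the 2074 that fell (2.17%). The inflammation lists include genes picked as known interferon-induced genes, so a high share on them was largely fixed in advance. Among genes of these lists that rose, 20 of 103 held it (19.4%). Those of smallest p are the guanylate-binding proteins Gbp2 (chr3:142620413-142620662, plus strand) and Gbp5 (chr3:142496684-142496933, plus strand), GTPases induced by interferon gamma, with the motif 59 and 165 bases before the start. In both it lies on the opposite strand and reads in capitals as its reverse complement. Gbp2 rose by 3.24 ± 0.63 (adjusted p = 0.000163; 2.27 and 0.185 with library set as a term) and Gbp5 by 2.58 ± 0.52 (adjusted p = 0.000253), while Syn1, Scg2 and Tubb2a above fell by 0.36, 0.28 and 0.30. A match describes the letters of these windows and was not tested as a binding site.
Gbp2: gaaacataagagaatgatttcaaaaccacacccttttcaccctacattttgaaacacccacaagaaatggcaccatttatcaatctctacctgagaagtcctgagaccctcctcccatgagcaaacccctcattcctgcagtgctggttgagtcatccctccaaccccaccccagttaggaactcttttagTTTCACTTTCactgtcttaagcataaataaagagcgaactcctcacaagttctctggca
Gbp5: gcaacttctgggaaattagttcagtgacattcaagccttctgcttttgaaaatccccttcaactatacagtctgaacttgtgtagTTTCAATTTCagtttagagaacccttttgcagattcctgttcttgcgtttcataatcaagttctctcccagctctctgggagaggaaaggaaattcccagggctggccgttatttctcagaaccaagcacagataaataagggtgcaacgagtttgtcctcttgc

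With the library sets in the model, far fewer genes passed. A fit with library set as a term, which estimates the set from the farnesol libraries alone, left 322 genes that fell (1.75%) and 362 that rose (1.96%). Of the 2797 falls, 2648 kept their sign in this fit and 273 were still called. Of the 415 neuronal genes 45 fell, with a median of -0.21 beside -0.19 without the term. The calls on Syn1, Rorb, Lamp5, Gabra2, Vgf, Kcnt1, Slc1a2 and Ncan held, the largest adjusted p being that of Vgf (0.0491). Those on Slc17a7 (-0.39, adjusted p = 0.1), Camk2a (-0.54, adjusted p = 0.0527), Grin2b (-0.42, adjusted p = 0.171) and Shank1 (-0.14, adjusted p = 0.59) were lost. Of these, the changes of Slc17a7 and Camk2a were larger in size than without the term, and those of Grin2b and Shank1 were smaller. The regional medians moved further, to -1.79 for the olfactory bulb, -0.66 for the striatum, 0.50 for monoamine neurons and 1.25 for the cerebellum. Farnesol replicate 2, one of the 3 low-set farnesol brains that define the term, was itself low in cerebellar genes.

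**Figure D5:**
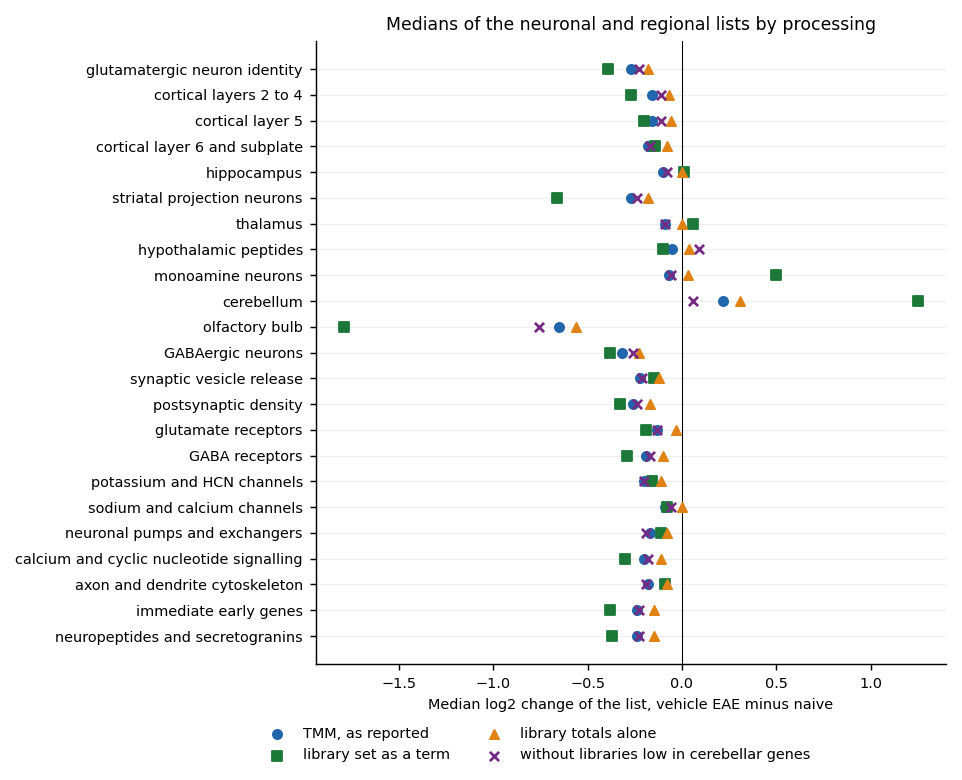
Median log2 change, vehicle EAE over naive, of the tested genes on each of 23 neuronal and regional lists under 4 settings: TMM scaling, library set as a term, library totals alone, and leaving out libraries low in cerebellar genes. The synapse, channel and cortical lists stay at or below 0 in these settings, and the olfactory bulb (-0.65 to -1.79 with the set term) and cerebellum (0.22 to 1.25) move most.

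Gavage itself was examined against untreated EAE brains, which shared the low library set and the immunization. Vehicle brains differed from untreated brains in 4 of 18438 genes (0.0217%), each with an adjusted p of 0.0391 from edgeR. These genes are named after their values were seen. Fmnl1, an actin regulator of blood cells and neurons, averaged 112 ± 13.4 CPM in vehicle brains and 141 ± 13.3 CPM in untreated brains (SD, n = 9 each; -0.34 ± 0.07). Ier5, an immediate early gene, averaged 64.4 ± 7.65 CPM in vehicle brains and 86.9 ± 5.44 CPM in untreated brains (-0.43 ± 0.08). Kcnip3, a calcium sensor of potassium channels, and Synj2, a phosphoinositide phosphatase, fell by 0.28 and 0.30. The count ranged from 0 to 15 when single vehicle libraries were left out and was 45 with DESeq2. None of the 415 neuronal genes passed between vehicle and untreated brains in edgeR, where their median was -0.05. At an unadjusted p below 0.05 there were 60 of them, beside 1522 of all 18438 genes. With DESeq2 2 of the 415 passed and with limma-voom 0. In glutamatergic identity genes the median was -0.17, with 14 of 15 below 0 and 6 of 15 at an unadjusted p below 0.05, and in vesicle release genes -0.09, with 24 of 25 below 0 and 7 of 25 at that p. Against the same naive libraries, 112 of the 415 fell in untreated brains and 168 in farnesol brains, beside 175 in vehicle brains. The 3 counts share their naive libraries. Vgf differed by -0.40 between vehicle and untreated brains and did not pass (adjusted p = 0.0961).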

How the data were processed

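RNA was sequenced from 9 vehicle EAE and 8 naive brains, within a series of 36 libraries. The authors deposited raw counts of reads per gene, not normalized, in 1 table of 54532 Ensembl identifiers with a column for each library. RNeasy columns and the NEBNext Ultra kit served for extraction and library construction, according to the labels' protocols. Reads were mapped with STAR 2.5 to mm10, per the submitters' processing notes. The extraction protocol also names Kallisto, and the sources used here do not give the read counter, its annotation or its strand setting, so overlapping genes, antisense genes and near-identical paralogs may share counts. Symbols and GRCm38 coordinates came from GENCODE M21, which named 54495 identifiers.

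Counts were analysed as deposited. The filterByExpr filter of edgeR 4.0.16 (R 4.3.3) with a minimum count of 10 and a minimum total of 15 retained 18438 genes. A quasi-likelihood fit of the 36 libraries used TMM factors and 1 mean for each of the 4 groups, and p was adjusted by Benjamini-Hochberg over all genes tested in each comparison. SE is log2 change over the root of the F statistic. Correlations used log2(CPM + 0.5) and exact permutation. Alternatives used limma 3.58.1 and DESeq2 1.42.0, and figures used Python 3.11.15 with matplotlib 3.10.9. The model was tested on simulated data for vehicle EAE against naive, where recovery was 68% of genes set to differ 1.25-fold, 80% of those set to 1.5-fold, 96% of those set to 2-fold and 100% of those set to 4-fold (50 genes for each size, 18235 tested), beside 6 false calls. Only the chosen genes were made to differ in the simulation, so its false calls do not measure calls that library set could cause. Vehicle and naive brains never shared a library set in the data. P-values measure the spread between these animals only, and replicate numbers do not pair animals between groups. All p are two-sided.

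The groups, gene lists and named genes were chosen with earlier results of these data known. Genes named are the 10 largest rises and 20 largest falls past the threshold with at least 1 CPM (5 CPM for falls), the 15 falls of smallest p above 20 CPM in naive brains, up to 4 changed members of smallest p per list, and 13 genes fixed by name. Members of neuronal lists that did not pass could be named too. Whrn, Grik2, Camkk1, Sptbn4, Mertk, Sst, Tubb2a and Gabra6 are named outside this rule, after their values were seen. Some genes that the rule names are not reported here.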

Additional observations from a re-analysis of the deposited data

Results flagged for a closer look

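In groups of 8 or 9 brains, a value was singled out where its gap to the nearest other brain exceeded Dixon's 95% limit for the group's range. This was looked for in 300 groups of values and found in 23, where chance alone flags about 1 in 20 groups.

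Naive replicate 4 accounted for the largest share. Its mean log2 level of cerebellar genes was 3.29, against 6.37 to 6.72 in the other naive brains. In the same brain Pvalb was low at 62.3 CPM and Garnl3 was low at 82.5 CPM, while Gabra2 (166 CPM), Gabra3 (142 CPM), Cacna2d1 (257 CPM) and Hs6st3 (28.8 CPM) were the highest of the naive group. The falls of Gabra2, Gabra3, Cacna2d1 and Hs6st3 kept their calls without this brain.

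Vehicle replicate 4 stood apart in interferon genes, with Cd74 at 935 CPM, Cxcl9 at 77.3 CPM, Gbp2 at 177 CPM, Gbp5 at 66.3 CPM and Serpina3f at 9.83 CPM. The rises of these genes kept their calls without it.

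Single genes stood apart in other brains. In vehicle replicate 3, Crhbp was 13.1 CPM and Hes5 was 8.8 CPM, and in vehicle replicate 7, Hs6st3 was 18.7 CPM. Naive replicate 1 had the lowest naive Prkcb (415 CPM) and Ncan (198 CPM), and naive replicate 6 the highest naive Vgf (432 CPM) and Serpina3f (0.0544 CPM). Naive replicate 2 had Frzb at 26.7 CPM and Sele at 0.137 CPM. The pituitary hormone gene Prl was 554 CPM in vehicle replicate 8 and 137 CPM in naive replicate 7.

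Vehicle and untreated EAE brains differed by test in Fmnl1 (-0.34), Ier5 (-0.43), Kcnip3 (-0.28) and Synj2 (-0.30), each with an adjusted p of 0.0391 from edgeR.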

How the results depend on the processing

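Vehicle against naive gave 4824 rises and 953 falls with library totals alone, 1092 changed genes (1026 rises, 66 falls) with a minimum fold of 1.2, and 684 (362 rises, 322 falls) with library set as a term, and its other alternatives stayed within 1.5 times of 5808. Untreated against naive, 4586 genes, gave 957 with a minimum fold of 1.2, 175 with library set as a term and 3008 with the olfactory bulb level as a covariate. Farnesol against naive gave 1203 with that fold and 3594 with that covariate. Vehicle against untreated, 4 genes, gave 7 with RLE size factors, 8 with a minimum count of 50, 45 with DESeq2, 15 with limma-voom, 1 with the 2 groups alone, 11 with library set as a term and 15 with the bulb covariate. It gave 1 without libraries low in cerebellar genes, 1 without libraries with Prl above 100 CPM, and 0 without libraries with Sbp above 1 CPM, with a minimum fold of 1.2, and with upper-quartile, library-total or housekeeping factors. At an unadjusted p below 0.05 it held 1522 genes in edgeR. Leaving out single vehicle or naive libraries gave 5085 to 5766 genes for vehicle against naive, and single vehicle libraries 0 to 15 for vehicle against untreated. The causes were not tested.

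Replicate numbers did not pair the brains, since deviations of same-numbered brains correlated at -0.15 to 0.08 and 0 of 8 naive brains correlated best with its own number. With replicate number as a block, 5472 genes changed between vehicle and naive, 2353 between untreated and naive and 1 between vehicle and untreated.

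Of 148 genes followed through each alternative, library set as a term ended 89 calls, the minimum fold 101, the bulb covariate 30 and library totals 23. Signs turned for Lars2 (0.71) and Rn7sk (0.31) with library set as a term, for Cdhr1 (0.09) and Sp8 (0.12) with the bulb covariate, and for the correlations of Cd74 with Slc1a2 (0.28) and Rorb (0.14) without vehicle replicates 2 and 4. The alternatives on libraries with Sbp or Prl and the bulb covariate were chosen after seeing the data. Depth of at least 14.71 M counts left genes under about 1 CPM with few counts, such as Omp in vehicle brains.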

Other observations

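Of 22 tested cholesterol synthesis genes, 14 fell in vehicle brains, 17 were below 0 and the median was -0.25, against 15.2% of all genes falling. Sqle, squalene epoxidase, measured 53.5, 62.5 and 71.3 CPM in vehicle brains (lowest, median, highest) and 75.6, 80.1 and 86.1 CPM in naive brains (-0.36 ± 0.06, adjusted p = 1.56e-05). Every vehicle brain was below every naive brain for Sqle, Dhcr7 and Hmgcs1. With library set as a term none of the 22 fell and the median was -0.01, so the set and the disease cannot be told apart here.

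Mitochondrial transcripts were lower in vehicle brains, taking 4.52 ± 0.26% of counts in them and 5.07 ± 0.45% in naive brains (SD, n = 9 and 8). Of 13 genes encoded in the mitochondrion 8 fell (median -0.31), and with library set as a term 4 did (median -0.40). mt-Co1, of cytochrome oxidase, measured 14310, 15681 and 16732 CPM in vehicle brains and 17019, 18237 and 22518 CPM in naive brains (-0.29 ± 0.06, adjusted p = 0.000343). Of 20 nuclear respiratory chain genes 12 fell (median -0.14), among them Ndufa9, a complex I subunit, by 0.26 (adjusted p = 1.15e-05), and Cs, the citrate synthase of the Krebs cycle, fell by 0.21 (adjusted p = 6.84e-07). Of the 20, 3 fell with library totals alone (median -0.04) and 0 with library set as a term (median -0.05), where Ndufa9 had an adjusted p of 0.336.

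Of 17 glucocorticoid response genes 11 rose (median 0.55), and 4 did with library set as a term. Tsc22d3, a steroid-induced regulator, measured 78.6, 105 and 127 CPM in vehicle brains and 59.6, 68 and 77.8 CPM in naive brains (0.62 ± 0.11, adjusted p = 4.93e-05), with no overlap. Cebpd, a transcription factor of the acute phase response, rose by 1.5 (adjusted p = 2.1e-08) and Nfkbia, the inhibitor of NF-kappaB, by 0.96 (adjusted p = 3.22e-07). All 11 endothelial activation genes rose, 8 of them also with library set as a term. Vwf, the clotting factor carrier of endothelium, measured 46.8, 58.9 and 104 CPM in vehicle brains and 18.7, 23.4 and 27.9 CPM in naive brains (1.51 ± 0.14, adjusted p = 1.61e-09), and Lrg1, which activated vessels secrete, rose by 3.41 (adjusted p = 9.26e-14). Of 14 resting endothelium genes 4 rose and 2 fell (median 0.02), and of 10 mural cell genes 2 fell (20%, median -0.02). Over all genes 16.3% rose and 15.2% fell. Slc2a1, the glucose transporter of the blood-brain barrier, rose by 0.52 (adjusted p = 6.24e-05) and Itm2a fell by 0.42 (adjusted p = 6.28e-05). Of 12 homeostatic microglia genes 2 fell (16.7%, near the share of all genes) and 5 were below 0 (median 0.10). P2ry12, the purine receptor of resting microglia, fell by 0.45 (adjusted p = 0.0172), at 15.6 to 28.2 CPM in vehicle brains and 25.1 to 35.3 CPM in naive brains.

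Sbp, a secreted spermine-binding protein, measured 5.09 to 7.71 CPM in vehicle replicates 3, 4 and 5. Its rise in vehicle brains (6.77 ± 1.67, adjusted p = 0.00204) did not pass in limma-voom with sample weights (adjusted p = 0.261).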
